A study of Mus musculus with 4 samples.

Results

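The proteins of the cytosolic ribosome are encoded by genes whose symbols begin with Rpl for the large subunit and with Rps for the small subunit. The members described here were taken from the GENCODE annotation of the mouse genome by symbol alone: autosomal protein-coding genes named Rpl or Rps followed by digits and an optional letter, together with Rplp0, Rplp1, Rplp2 and Rpsa, without pseudogenes, S6 kinase genes or -like genes. The rule gave 72 genes, 43 of the large and 29 of the small subunit, of 21938 protein-coding genes. All 72 had at least 100 ends near their start site over the libraries, the minimum for a promoter to be compared, as did 18024 of the 20807 autosomal coding genes. The genes are spread over 18 autosomes, with 14 on chromosome 7, 7 on chromosome 11 and none on chromosome 19.

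Ribosomal proteins assemble on ribosomal RNA in the nucleolus, and the subunits then work together in the cytosol to translate mRNA. Their genes are transcribed in all growing cells, from promoters that carry trimethylated lysine 4 of histone H3 (H3K4me3), a mark of active start sites. Many of their mRNAs begin with a run of pyrimidines, the terminal oligopyrimidine or TOP motif, through which growth signals control translation, and several of the genes carry small nucleolar RNAs (snoRNAs) in their introns.

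H3K4me3 HiChIP-seq was made from MLg cells, a mouse lung fibroblast line. In this method chromatin is cut with MboI, ends that lie close in the nucleus are ligated, and fragments with the mark are precipitated, so that each pair of reads reports a contact and the density of pair ends reports the mark. There was 1 library for each of 4 conditions: Control, labelled WT, TGFB1 (human recombinant TGFB1 at 5 ng/ml for 4 h), miR-9-LOF (an antagomiR against miR-9-5p at 60 nM, harvested 24 h after transfection) and TGFB1+miR-9-LOF with both agents. By the study's text the cells without the miR-9 antagomiR received a control antagomiR, which the sample labels of Control and TGFB1 do not name. miR-9 itself is not measured by these libraries. With 1 library per condition no test between conditions could be made, and all intervals cover counting error only. A lower value can be fewer cells with the mark, less of it per cell or a weaker precipitation in that library, which cannot be told apart.

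The sequences around the annotated start sites were read for pyrimidine runs, since the TOP motif is such a run at the first base of the mRNA. A RefSeq promoter sequence matched 52 of the 72 genes. The window read was 15 bases on either side of the RefSeq start, on the coding strand only, and the motif searched was an unbroken run of C and T of any order. A run of at least 8 was present in 22 of the 52 genes (42.3%), in 11.7% of all 13712 autosomal promoters with a sequence, and in 11.5% of those of the equal-end group defined below. A run of this length held the start base itself in 14 of the 22 genes, and in the other 8, such as Rpl4 and Rpl13a, it lay before or after it. How often such a run held the start base in other promoters was not counted. The start base was C or T in 24 of the 52 genes (46.2%), in 23.6% of all promoters and in 23.4% of the equal-end group. The 4 longest runs are given first, then 4 further examples that hold the start base, then 3 genes without a long run. Sequences are from RefSeq on GRCm38.p6, 5′ to 3′ on the strand of the gene, the RefSeq start is the base after the 15 first letters, and capitals mark the longest pyrimidine run in the window.
Rpl7a (chr2:26910792-26910821, plus strand): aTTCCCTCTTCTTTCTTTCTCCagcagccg
Rpl27a (chr7:109519180-109519209, plus strand): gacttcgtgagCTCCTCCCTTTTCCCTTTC
Rpl35 (chr2:39005117-39005146, minus strand): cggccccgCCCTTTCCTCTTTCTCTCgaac
Rpl15 (chr14:18270972-18271001, minus strand): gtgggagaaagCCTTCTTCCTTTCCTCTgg
Rpl38 (chr11:114668565-114668594, plus strand): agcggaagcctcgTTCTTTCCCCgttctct
Rplp2 (chr7:141447636-141447665, plus strand): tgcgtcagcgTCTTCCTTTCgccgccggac
Rps10 (chr17:27635230-27635259, minus strand): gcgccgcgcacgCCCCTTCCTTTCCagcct
Rps6 (chr4:86857353-86857382, minus strand): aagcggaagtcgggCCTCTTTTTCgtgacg
Rpl24 (chr16:55966260-55966289, plus strand): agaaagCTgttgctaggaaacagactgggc
Rps3 (chr7:99483695-99483724, minus strand): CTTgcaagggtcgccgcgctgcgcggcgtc
Rps7 (chr12:28635939-28635968, minus strand): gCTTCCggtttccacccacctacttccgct
The run was 21 bases long in Rpl7a, 19 in Rpl27a, 18 in Rpl35 and 17 in Rpl15, against 2 in Rpl24 and 3 in Rps3. A match is a description of the letters, and an annotated start can lie some bases from the start used in these cells. The level of the mark was not higher where the run was long: the median was 8.64 CPM, ends per 1000000 ends of a library averaged over the libraries, in the 22 genes with a run of at least 8 and 9.41 in the other 30.

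The libraries held 10864558 (TGFB1) to 15568047 (miR-9-LOF) valid pairs, of which 80.4% to 84.6% lay on 1 chromosome. Contacts were counted as pairs 20 kb to 2 Mb apart, and each library held 4793358 to 6692320 of them. Promoters of fibroblast genes carried the mark, with 10 of 13 at or above 2 times their flanks in Control and a median of 4.62 times. Of the epithelial, endothelial and blood markers, 0 of 6, 0 of 4 and 0 of 4 reached 2 times their flanks in Control, with medians of 0.902, 0.921 and 0.778 times.

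The median ribosomal protein promoter carried more of the mark than the median of all promoters in each of the 4 libraries, with the highest level in Control. The level was counted as pair ends within 2 kb of the start site, per 1000000 ends of the library (CPM). The median over the 72 members was 13.1 in Control, 9.41 in TGFB1, 5.84 with TGFB1+miR-9-LOF and 7.56 with miR-9-LOF, against 4.79, 4.14, 3.41 and 3.50 over all 18024 promoters. The difference between members and all promoters was thus widest in Control and narrowest in TGFB1+miR-9-LOF. Averaged over the libraries the median member had 8.95 CPM, the 76.1 percentile of all promoters, and 62 of the 72 members lay above the median of all promoters. Control was the highest of the 4 libraries for 70 of the 72 members (61.8% of all promoters) and TGFB1+miR-9-LOF the lowest for 68 (52.1% of all promoters).

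Against their own surroundings, the ends expected from the flanks 10 to 50 kb away on either side, the members had a median of 4.56 times in Control, 3.49 in TGFB1, 2.29 with TGFB1+miR-9-LOF and 2.85 with miR-9-LOF. All promoters had 2.01, 1.82, 1.60 and 1.65 times. The 4347 promoters of the equal-end group, defined below, had 5.14, 3.91, 2.65 and 3.06 times, above the members in each library. At least 2 times the flanks was reached by 59 members in Control (50.1% of all promoters), 53 with TGFB1 (46.5%), 45 with TGFB1+miR-9-LOF (37.8%) and 51 with miR-9-LOF (41.3%). The flanks of a member can hold other marked promoters, so a low ratio does not mean a low level. Below 2 times in every library were 12 members (47.9% of all promoters), Rpl21, Rpl24, Rpl29, Rpl36, Rpl41, Rplp2, Rps10, Rps15, Rps16, Rps23, Rps27 and Rps29. They include Rplp2, which had 13.1 CPM in Control and whose flanks held 2.396 times the ends of the median autosomal promoter's flanks. Rpl24, Rps23 and Rps29 had flanks below that median, at 0.648, 0.659 and 0.852 times.

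**Figure D1:**
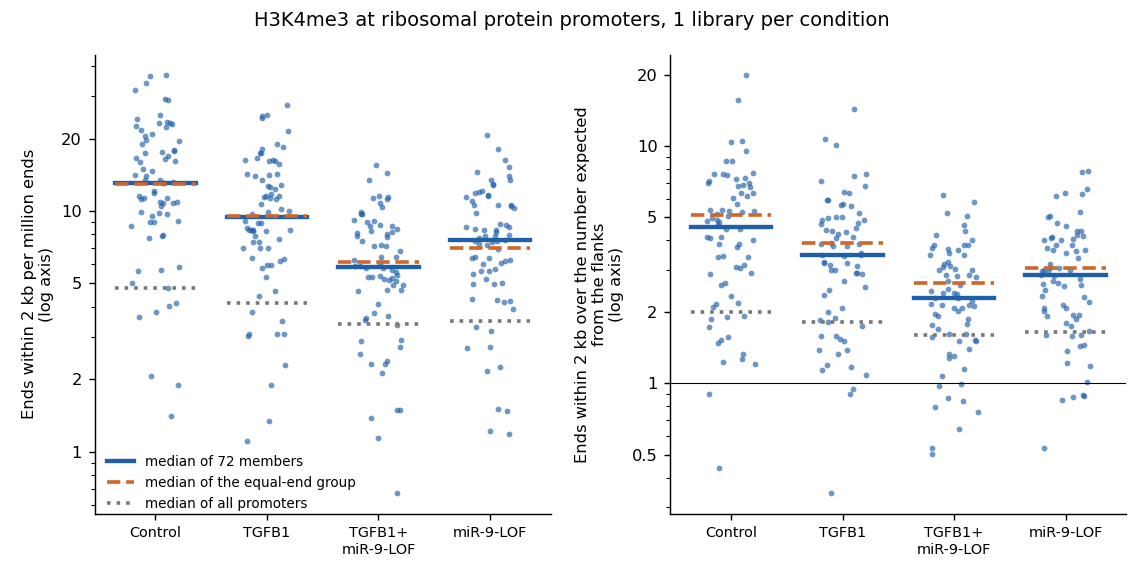
Pair ends within 2 kb of the start site of the 72 ribosomal protein genes (points) in each library, as CPM on the left and over the number expected from the flanks on the right, both on a log axis. Solid bars are the members' medians, dashed bars those of the equal-end group and dotted bars those of all 18024 promoters; the members' median falls from 13.1 CPM in Control to 5.84 with TGFB1+miR-9-LOF and lies above that of all promoters in each library.

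The 3 members with the most ends all encode large subunit proteins. Rpl8, ENSMUSG00000003970.9 at chr15:76904078-76906314, whose protein lies in the core of the large subunit, had 36.6 CPM in Control, 27.5 in TGFB1, 15.5 with TGFB1+miR-9-LOF and 20.7 with miR-9-LOF. Rpl19, which forms a bridge between the subunits, had 36.3, 25, 14.4 and 16.2 in the same order. Rpl38, needed for patterning of the axial skeleton in mice, had 31.8, 24.4, 13.5 and 18.0. In all 3 genes Control was highest and TGFB1+miR-9-LOF lowest, and the 95% Poisson intervals of these libraries did not overlap, as with 34.5 to 38.8 against 14.1 to 17.0 for Rpl8. This order is not particular to these genes. The equal-end group, defined below, had a median of 12.98 CPM in Control and 6.14 in TGFB1+miR-9-LOF. How many other promoters had intervals that did not overlap was not counted. The annotated gene starts are those of GENCODE, and those of 69 members lay within 500 bp of the start of the principal transcript. In Rps2, Rps24 and Rpl3 the distance was 1947, 3593 and 8462 bp.

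The 3 members with the fewest ends were at 0.442 to 1.48 times their flanks in Control. Rpl24, a large subunit protein at the interface of the subunits and the gene of the Belly spot and tail mouse, had 1.89, 1.34, 0.674 and 1.19 CPM in the same order, from 58, 29, 19 and 37 ends. Rps10, a protein near the mRNA entry of the small subunit, had 1.40, 1.10, 1.38 and 1.48 CPM. Rps23, a protein of the decoding centre, had 2.05, 1.89, 1.14 and 1.22. Rps10 was the member with the lowest value over the flanks in Control, 0.442, and its libraries overlap within their counting intervals. Its RefSeq start lies 1425 bp downstream of the GENCODE start, and its window held 4 MboI sites.

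The next members, with roles known from other work, ran from 5.87 CPM (Rpsa) to 23.0 CPM (Rplp0) in Control. Of the stalk proteins that recruit translation factors, Rplp0 had 23.0 CPM in Control and 10.4 in TGFB1+miR-9-LOF, Rplp1 had 7.92 and 4.68, and Rplp2 had 13.1 and 6.28. Rpl5 and Rpl11, which join 5S ribosomal RNA and bind Mdm2, had 9.91 and 14.9 in Control and 4.12 and 5.78 in TGFB1+miR-9-LOF. Rps6, the substrate of S6 kinase, had 11.5, 9.90, 5.11 and 6.40 over the 4 libraries in the order above, and stood at 10.3 times its flanks in Control. Rps19, a gene mutated in Diamond-Blackfan anaemia, had 20.5 in Control and 8.69 in TGFB1+miR-9-LOF. Rps27a, whose product is fused to ubiquitin, had 17.0 and 7.17, and Rpsa, also known as the laminin receptor, 5.87 and 2.56. Rpl13a, Rps3, Rps7, Rps20 and Rps24 had 22.5, 11.2, 9.06, 11.3 and 10.5 CPM in Control and 8.23, 5.15, 3.37, 5.22 and 5.93 in TGFB1+miR-9-LOF. All of these genes had a lower CPM of ends in TGFB1+miR-9-LOF than in Control, and so did the median of the equal-end group.

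By subunit the median was 9.45 CPM for the 43 large subunit genes and 7.95 for the 29 small subunit genes, and the ratio to the flanks in Control was 4.96 and 3.86 times. The 27 members with a snoRNA gene inside (37.5%, against 1.68% of the equal-end group) had a median of 11.1 CPM and the other 45 had 8.17. Members were short genes, with a median of 3328.5 bp against 23137 bp in the equal-end group, and 59.7% of them had another coding start within 10 kb against 39.5%. A divergent coding start within 1 kb was about as frequent, with 11.1% against 13.2%.

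The number of MboI sites limits how many ends a promoter can give. Members had a median of 10.5 sites within 2 kb, and the equal-end group had 10. Over the 72 members, which share libraries and base composition, the ends and the sites had a Spearman correlation of 0.55 and a Pearson correlation of 0.53, given as a description. The 11 members with at most 6 sites had a median of 3.86 CPM and the 16 with at least 13 sites had 11.5, against 2.73 and 5.38 in the other promoters with as many sites. At equal numbers of sites the members were thus above the other promoters in each class. Retrocopies of ribosomal protein genes can compete for reads, and 4.71% of the members' ends had a mapping quality below 30 in Control, against 4.4% in the equal-end group. The values were 5.17% and 4.28% in TGFB1, where they lay furthest apart, 4.60% and 4.24% with TGFB1+miR-9-LOF and 6.83% and 6.29% with miR-9-LOF. These shares cover the deposited valid pairs only, so reads lost before that step are not seen in them. With only pairs in which both ends had a quality of 30 or more, the members that kept the smallest share of their ends were Rpl34 with 58.5%, Rps7 with 65.6% and Rplp1 with 66.2%.

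The bin with the most ends lay further downstream in members than in the equal-end group, and members had more MboI sites at 400 to 600 bp downstream than at 200 to 400 bp. The group was made of the 4347 other autosomal promoters whose ends lie between the quartiles of the members, 6.21 and 13.1 CPM. Here distances are from the start of the principal transcript. A RefSeq start lay within 10 bases of it in 15 of the 52 members with a sequence and in 1633 of 3404 promoters of the group. The place of the bins thus also depends on the start annotation, which was not tested. In 200-bp bins the members had the most ends 400 to 600 bp downstream of the start in Control, TGFB1 and TGFB1+miR-9-LOF and 600 to 800 bp downstream in miR-9-LOF, and the equal-end group had the most at 200 to 400 bp in every library. In Control the highest bin held 1.83 CPM per member and 1.91 per promoter of the group. Members had 0.472 MboI sites at 200 to 400 bp and 0.667 at 400 to 600 bp, and the group had 0.537 and 0.544. Per site, the ends of members were highest at 200 to 400 bp in Control, with 3.69 CPM against 2.75 at 400 to 600 bp, and the group was highest in the same bin with 3.55. Per site the bin of 200 to 400 bp was also the highest in members in TGFB1 and in miR-9-LOF, and that of 0 to 200 bp in TGFB1+miR-9-LOF, a count per site that was added after seeing the data. Of the ends within 2 kb in Control, 68.8% of the members' and 65% of the group's lay downstream, with MboI sites as frequent upstream (5.07 per member) as downstream (5.03). Over the pooled libraries 58 of 72 members had more than 50% of these ends downstream, against 74.5% of the group. A smaller share of the members' ends lay near the start: 49.5% of those within 5 kb lay within 1 kb in Control against 57.0% in the group, and 40.1% against 44% in TGFB1+miR-9-LOF. The 5 kb can also hold ends of neighbouring promoters. Another coding start within 10 kb was present in 59.7% of members and 39.5% of the group. The part of such neighbours in these shares was not tested.

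**Figure D2:**
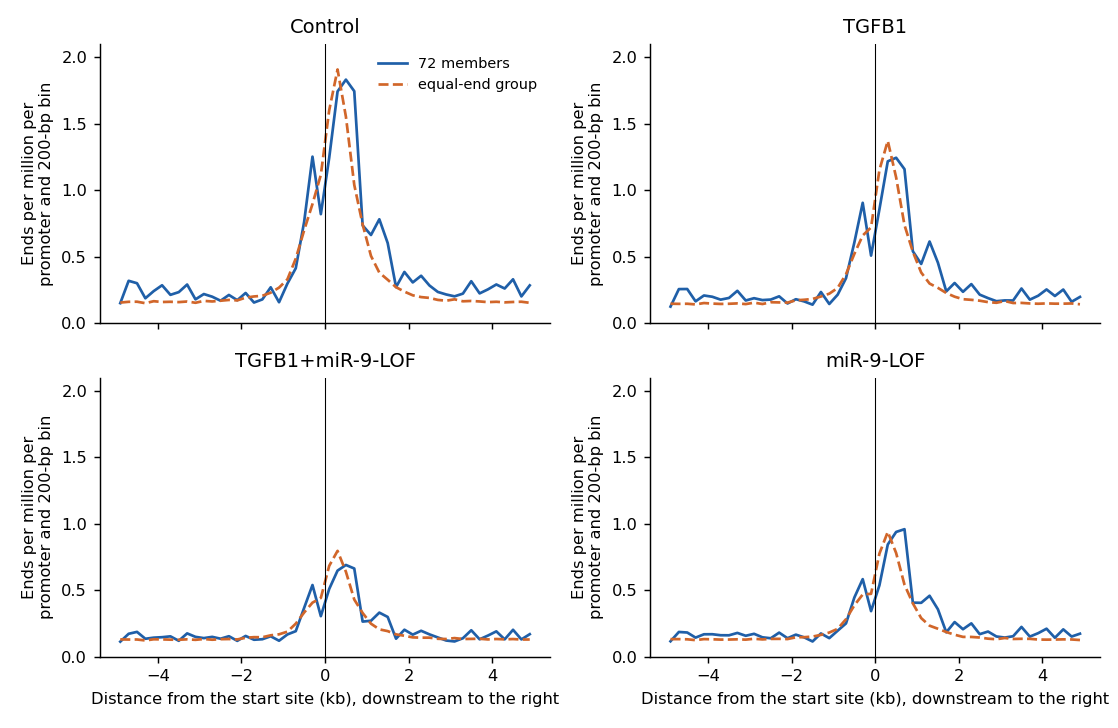
Mean ends (CPM) per promoter in 200-bp bins from 5 kb before to 5 kb after the start of the principal transcript, for the 72 members (solid) and the equal-end group (dashed), 1 panel per library. The highest bin of the members lies 400 to 600 bp downstream in 3 libraries and 600 to 800 bp downstream in miR-9-LOF, beyond that of the group at 200 to 400 bp, but members also had more MboI sites at 400 to 600 bp (0.667) than at 200 to 400 bp (0.472), and per site their ends in Control were highest at 200 to 400 bp.

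A promoter with more of the mark has more contacts by precipitation alone, so contacts with an end within 10 kb of the start were compared with those of the coding promoters nearest in ends in the same library. The members had a median of 49.0 CPM, here contacts per 1000000 contacts of the library, in Control, 39.8 in TGFB1, 30.9 with TGFB1+miR-9-LOF and 34.0 with miR-9-LOF, against 30.2, 27.3, 24.4 and 24.6 over all promoters. At equal ends the difference was smaller. The median log2 value of the members relative to promoters with equal ends was 0.067, 0.057, 0.044 and 0.074 in the same order. The value was above 0 in 40 members in Control (49.6% of all promoters), 42 with TGFB1 (49.5%), 39 with TGFB1+miR-9-LOF (49.4%) and 41 with miR-9-LOF (49.5%). At least 0.5 above on the log2 scale were 14, 12, 10 and 8 members (16.4%, 15.5%, 13.8% and 13.5% of all promoters), and at least 0.5 below were 5, 8, 9 and 8 (13.7%, 14.4%, 14.4% and 12.7%). As shares of the 72 members these were 19.4%, 16.7%, 13.9% and 11.1% above and 6.94%, 11.1%, 12.5% and 11.1% below. The sign of the median depended on the window: with contacts counted within 2 kb of the start it was -0.11 in Control, -0.059 in TGFB1, -0.075 with TGFB1+miR-9-LOF and -0.098 with miR-9-LOF. With the ends matched within 1 kb of the start it was higher, at 0.24, 0.19, 0.098 and 0.17 in the same order.

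The value moved with the number of other coding starts beside the gene. Contacts were counted within 10 kb of the start and ends were matched within 2 kb. Contacts of a neighbour beyond 2 kb are thus counted for the gene, while its ends do not enter the match. The counting alone can therefore give a rise with neighbours. Above promoters with equal ends in all 4 libraries were 30 members (36.4% of all promoters), and 22 were below in all 4 (36.3%). Averaged over the libraries, the 29 members with no other coding start within 10 kb had a median of -0.16 and 9 above 0, the 31 with 1 such start had 0.12 and 19 above 0, and the 12 with 2 or more had 0.38 and 11 above 0. The other promoters had medians of -0.039, 0.025 and 0.33 in these classes. Above 0 were 31%, 61.3% and 91.7% of the members and 46.4%, 52.4% and 73.6% of the other promoters. Over the 72 members the Spearman correlation of the value with the number of starts was 0.46 and the Pearson correlation 0.49, as a description.

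**Figure D3:**
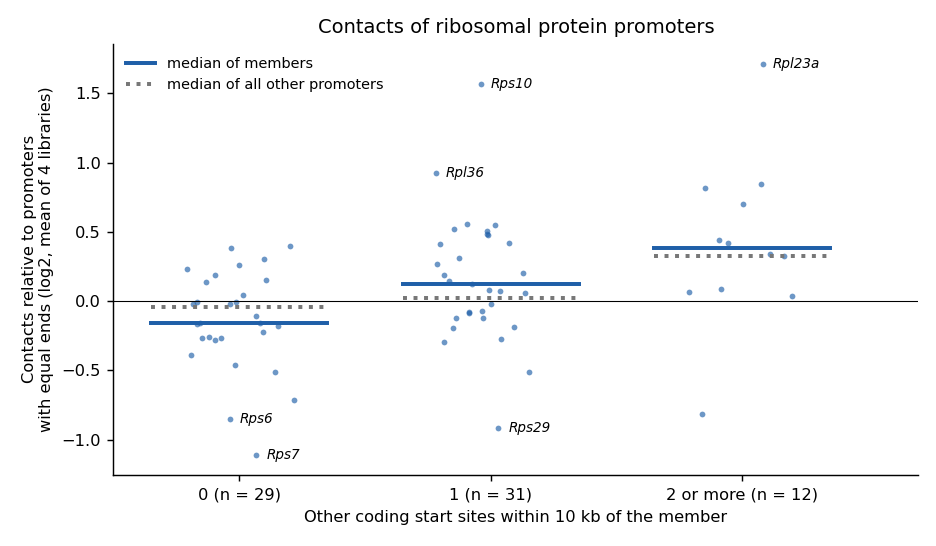
Contacts of each of the 72 members relative to promoters with equal ends, on the log2 scale and averaged over 4 libraries, by the number of other coding start sites within 10 kb. Solid bars are the medians of the members, at -0.16, 0.12 and 0.38, and dotted bars those of all other promoters, at -0.039, 0.025 and 0.33; the 3 highest and 3 lowest members are named.

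The 3 members with the highest mean over the libraries had at least 1 other coding start within 10 kb. Counted from the start of its principal transcript Rpl3 had a mean of 1.09, above that of Rpl36, the third of them. Rpl23a, whose protein lies at the exit of the peptide tunnel, has 4 other coding starts within 10 kb and 3 snoRNA genes inside, and had 162 CPM of contacts in Control, 117 with TGFB1, 80.0 with TGFB1+miR-9-LOF and 85.9 with miR-9-LOF. Relative to promoters with equal ends this was 2.19, 1.79, 1.41 and 1.48 on the log2 scale. Rps10, with 1 other coding start 1447 bp away, had 1.60, 1.94, 1.41 and 1.33, and Rpl36, of the large subunit, had 1.05, 1.00, 0.70 and 0.96. These values depend on the window of 10 kb: with contacts counted within 2 kb the means over the libraries were -0.34 for Rpl23a, -0.073 for Rps10 and -0.11 for Rpl36. The stalk gene Rplp2, with 3 other starts, went from a mean of 0.85 to -0.20 in the same way.

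The 3 lowest members stayed below promoters with equal ends at each contact window, with means of -0.66 for Rps7, -0.61 for Rps29 and -0.27 for Rps6 at 2 kb. Rps7, a small subunit protein that binds Mdm2, had 15.7 CPM of contacts in Control, 14 in TGFB1, 11.1 with TGFB1+miR-9-LOF and 12.1 with miR-9-LOF, which was -1.15, -1.05, -1.17 and -1.08 relative to promoters with equal ends. Rps29, a small subunit protein, had -1.17, -0.93, -0.72 and -0.85, and Rps6 had -0.90, -0.93, -0.80 and -0.77. Each of the 3 genes was below its equals in all 4 libraries. Rps7 kept 65.6% of its ends when both ends of a pair had to reach a quality of 30, and its mean from such pairs alone was -1.56. Rps7 and Rps6 have no other coding start within 10 kb, and their flanks held 0.544 and 0.471 times the ends of the median autosomal promoter's flanks.

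Member promoters made contacts over distances close to those of the equal-end group, and a larger share of them reached other strong promoters. In Control 21.5% of the members' contacts spanned 20 to 50 kb and 6.84% spanned 1 to 2 Mb, against 21.4% and 6.91% in the group. Of the contacts of the 10-kb bin that holds the start, 23.0% ended in a bin with the start of a strong promoter, a promoter with at least 6.21 CPM, in Control, 22.5% in TGFB1, 17.9% with TGFB1+miR-9-LOF and 19.2% with miR-9-LOF, against 17.2%, 16.2%, 13.8% and 14.5% in the group. Relative to the number expected from the coverage of both bins and their distance, these contacts were 0.559 times (95% Poisson interval 0.541 to 0.576) for members and 0.570 times (0.567 to 0.573) for the group in Control. In the other 3 libraries, in the order above, the members had 0.691, 0.759 and 0.690 times and the group 0.668, 0.752 and 0.680, each inside the members' interval, as in Control. Contacts with bins that hold no coding start were 0.738 times (0.724 to 0.751) the expected number for members and 0.862 times for the group in Control. In the other libraries they were 0.730, 0.766 and 0.740 times for members and 0.841, 0.835 and 0.831 for the group, outside the members' interval in every library. Contacts with weaker promoters were also further below the expected number in members, with 0.656, 0.702, 0.720 and 0.702 times against 0.744, 0.771, 0.807 and 0.776 in the group, again outside the members' interval in each library. The observed number was below the expected one for each kind of bin in both sets, so only the comparison with the group is read. That comparison is not at equal ends, since the group spans 6.21 to 13.1 CPM and the members 1.27 to 25.1 CPM.

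TGFB1 was compared with Control, which asks about 4 h of TGFB1. In this and the following comparisons each condition is 1 library, so that the treatment and the library cannot be told apart. Nearly all members had a smaller share of ends and contacts in TGFB1: 71 of 72 had a lower CPM of ends (72.4% of all promoters), with a median log2 ratio of -0.47, and 70 had a lower CPM of contacts (70.8%), with a median of -0.34. Strong promoters stood lower than weak ones in this comparison, with a median of -0.44 for ends in the equal-end group and -0.28 over all promoters, so ratios were read minus the median of promoters with equal ends. On that scale 43 of 72 members were lower for ends (50.1% of all promoters), with a median of -0.071, and 47 for contacts (50.1%), with a median of -0.042. The direction for contacts turned among the 29 members without another coding start within 10 kb, where 13 were lower and the median was 0.019. At least 0.5 lower were 4 members for ends (4.63%) and 2 for contacts (1.52%), and at least 0.5 higher were 0 for ends (4.45%) and 0 for contacts (1.29%). Rpl17, with 111 ends in Control and 50 in TGFB1, was lowest for ends at -0.66 (95% interval -1.18 to -0.18), and Rpl24 followed at -0.59 (-1.30 to 0.061). Rpl36 was highest at 0.40 (0.041 to 0.76), and Rpl10a, of the large subunit, stood at 0.33 (0.10 to 0.55). For contacts Rps9, with 86 contacts in TGFB1, was lowest at -0.60 (-0.99 to -0.23), Rpl24 stood at -0.56 (-0.94 to -0.19), Rplp1 was highest at 0.31 (0.022 to 0.60), and Rps20 stood at 0.20 (-0.18 to 0.56).

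TGFB1+miR-9-LOF was compared with TGFB1, which asks about the antagomiR in treated cells. The share of ends was again lower in 71 of 72 members (74.4% of all promoters), with a median log2 ratio of -0.72, and contacts were lower in 71 (72.5%), with a median of -0.38. At equal ends 47 members were lower for ends (49.9%), with a median of -0.097, and 44 for contacts (50%), with a median of -0.042. At least 0.5 lower for ends were 6 members (5.04%) and at least 0.5 higher 0 (4.53%), and for contacts 1 (1.93%) and 0 (1.4%). Rpl24 was lowest for both, at -1.10 (-2.02 to -0.22) for ends, from 29 and 19 ends, and -0.59 (-1.04 to -0.14) for contacts. Rpl21, a large subunit protein with 2 snoRNA genes inside, had -0.99 (-1.59 to -0.42) for ends, and Rpl17 had -0.41 (-0.81 to -0.017) for contacts. The highest for ends were Rps16 at 0.38 (0.065 to 0.69) and Rps10 at 0.29 (-0.47 to 1.10), and for contacts Rpl34 at 0.25 (-0.085 to 0.59) and Rpl3 at 0.23 (0.0079 to 0.44). Rpl3 encodes a protein close to the peptidyl transferase centre. Its principal transcript starts 8462 bp from the start used, and from that start its value for contacts was -0.0044.

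miR-9-LOF was compared with Control, which asks about the antagomiR without TGFB1. Ends were lower in 71 members (75.1% of all promoters), with a median log2 ratio of -0.84, and contacts in all 72 (74.9%), with a median of -0.57. At equal ends the members divided evenly for ends, with 34 lower (50%) and a median of 0.0082, while 41 were lower for contacts (50%) with a median of -0.025. The direction for contacts depended on the processing: the median was 0.068, with 12 of 29 lower, among members without another coding start within 10 kb, and 0.050 with contacts within 2 kb. For ends 6 members were at least 0.5 lower (7.15%) and 2 at least 0.5 higher (5.86%), and for contacts 3 (3.51%) and 0 (2.72%). Rpl17, with 111 ends in Control and 47 in miR-9-LOF, was lowest for ends at -1.23 (-1.76 to -0.74), then Rpl24 at -0.84 (-1.48 to -0.23), and Rpl36 at 0.64 (0.31 to 0.97) and Rpl3 at 0.51 (0.33 to 0.70) were highest. The start used for Rpl3 lies 534 bp from another coding start, so its window of 2 kb takes in that start as well. The window held 1686 ends, against 805 at the start of its principal transcript, where the value was 0.27. For contacts Rpl24, with 181 in Control and 84 in miR-9-LOF, had -1.23 (-1.63 to -0.86), Rpl35a -0.83 (-1.31 to -0.37), Rpl14 0.29 (0.020 to 0.56) and Rplp1 0.28 (-0.0028 to 0.55). Rpl24 was among the lowest 2 members for ends and for contacts in each of these 3 comparisons, which share libraries and rest on few ends of this gene.

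TGFB1+miR-9-LOF was compared with miR-9-LOF, which asks about TGFB1 in cells with the antagomiR, and of the 4 comparisons this one had the medians at equal ends furthest from 0. Ends were lower in 69 members (63.9% of all promoters) with a median log2 ratio of -0.33, and contacts in 61 (56.7%) with a median of -0.14. At equal ends 59 of 72 members (81.9%) were lower for ends (50.1% of all promoters), 25 of 29 small subunit and 34 of 43 large subunit genes, with a median of -0.14. Contacts were lower in 48 (50.1%), with a median of -0.080. At least 0.5 lower for ends were 3 members (3.78%) and at least 0.5 higher 0 (3.12%), so that the displacement was small in most genes and spread over many. For contacts 1 member was at least 0.5 lower (1.69%) and 1 at least 0.5 higher (0.649%). The medians for ends of some related gene lists were also below 0: -0.085 in the mitochondrial ribosomal protein genes, 51 of 76 lower, -0.089 in ribosome biogenesis genes, 24 of 30 lower, and -0.075 in a list of genes with TOP mRNAs, 13 of 19 lower. The autosomal ribosomal protein genes outside the rule had -0.17, 3 of 3 lower, but the -like genes had 0.027, 2 of 6 lower. The fibroblast markers had 0.074, with 5 of 13 lower, and the epithelial markers 0.19, with 1 of 6 lower. The blood markers had -0.14, with 3 of 4 lower, and the endothelial markers -0.0045, with 2 of 4 lower. These lists overlap in Npm1 (biogenesis and TOP) and Vim (TOP and fibroblast). Whether the difference between libraries with and without TGFB1 was another in cells with the antagomiR was not tested.

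**Figure D4:**
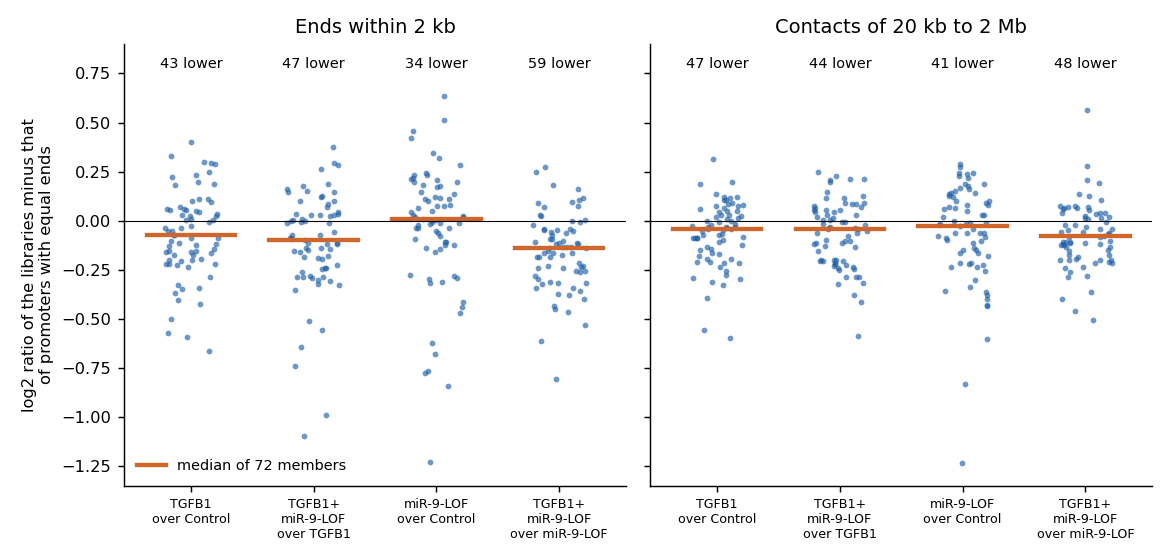
The log2 ratio of ends within 2 kb (left) and of contacts (right) between libraries, minus the median of promoters with equal ends, for each of the 72 members (points) in 4 comparisons that share libraries. Orange bars are the members' medians and the number above each column counts members below 0, with 59 of 72 for the ends in TGFB1+miR-9-LOF over miR-9-LOF and 34 to 47 for the ends in the other comparisons.

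Contacts of ribosomal protein promoters with each other were counted on the same chromosome and between chromosomes. On the same chromosome 9 pairs of members lie 20 kb to 2 Mb apart, and 315 pairs of ends joined them over the 4 libraries where 518.8 were expected from coverage and distance, a ratio of 0.607 (95% Poisson interval 0.542 to 0.678), against 0.708 (0.706 to 0.711) for pairs of the equal-end group. The lower ratio of the members rests on 1 pair of genes: without Rps28 and Rps18, left out after seeing the data, 249 pairs of ends were observed where 327.7 were expected, a ratio of 0.760 (0.668 to 0.860), and the group's ratio lies inside this interval. By library the members' ratio was 0.546 (0.453 to 0.652) in Control, 0.506 (0.379 to 0.661) in TGFB1, 0.773 (0.588 to 0.997) with TGFB1+miR-9-LOF and 0.709 (0.563 to 0.881) in miR-9-LOF. The ratio of the group was 0.652, 0.718, 0.784 and 0.740, inside the members' interval in all libraries but TGFB1.

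The neighbours differed among themselves. Rpsa and Rpl14, 444 kb apart on chromosome 9, were joined by 17 pairs with 12.8 expected, a ratio of 1.33 (0.773 to 2.13). Rpl23 and Rpl19, 244 kb apart on chromosome 11, were joined by 102 with 121 expected, 40, 22, 21 and 19 of them in the libraries in the order above. Rpl13a and Rpl18, 587 kb apart on chromosome 7, had 23 pairs where 26.8 were expected. Rpl41 and Rps26 had 84 with 138 expected, Rps10 and Rpl10a 12 with 22.2, and Rps28 and Rps18, 131 kb apart on chromosome 17, had 66 with 191 expected, a ratio of 0.345 (0.267 to 0.439). Rps28 and Rps18, the lowest of the pairs with at least 10 expected, are strongly marked, with 16.5 and 18.5 CPM. Both lie above the range of the equal-end group, 6.21 to 13.1 CPM, so this pair is not compared at equal ends. They kept 74.1% and 74.6% of their ends when both ends of a pair had to reach a quality of 30. The expected number was counted without that filter.

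Between chromosomes 51 pairs joined windows of 10 kb around members where 30.2 were expected from the interchromosomal ends of both, a ratio of 1.69 (1.26 to 2.22), against 1.19 (1.18 to 1.2) for the equal-end group. The numbers were 16 in Control with 12.9 expected, 13 in TGFB1 with 4.92, 9 in TGFB1+miR-9-LOF with 5.24 and 13 in miR-9-LOF with 7.15. The interval of the members left out the ratio of the group in TGFB1 and in the sum, and included it in the other 3 libraries. The 51 pairs were spread over 50 of 2367 gene pairs and 50 members, and no gene pair had more than 2. Without the 6 members that kept the smallest share of their ends in well-mapped pairs the ratio was 1.56 (1.10 to 2.14), an interval that holds the group's 1.19. These members were left out after seeing the data. With both ends of a pair at a quality of 30 or more, a planned setting, the members' ratio was 1.663 (1.213 to 2.225). Windows of 5 kb gave 1.871 (1.199 to 2.783). With windows of 2 kb 7 pairs were left with 5.87 expected, a ratio of 1.19 (0.48 to 2.46). The group's ratio at 2 kb was 0.862, inside that interval.

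**Figure D5:**
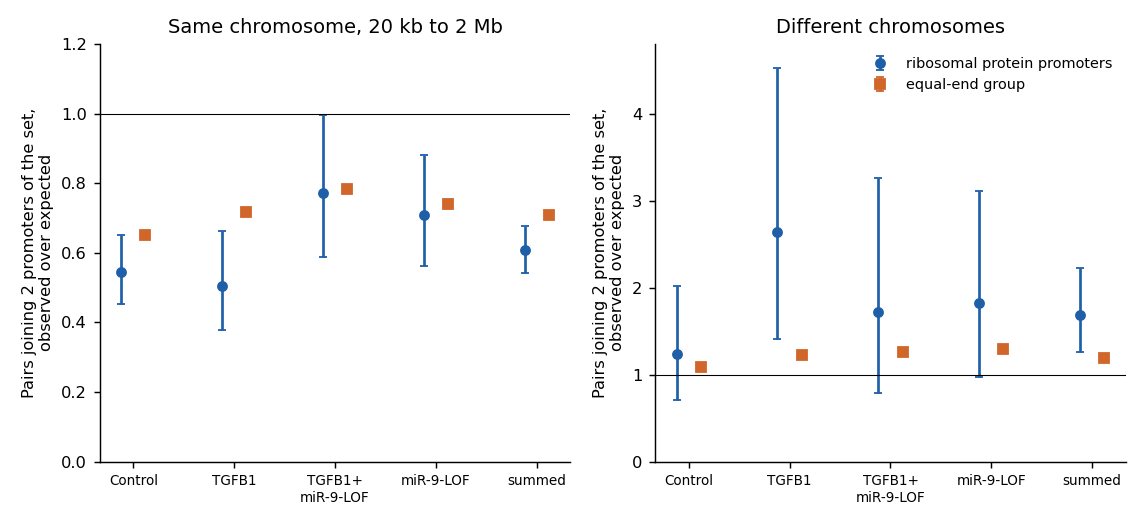
Pairs of ends joining promoters of the same set over the number expected, on the same chromosome at 20 kb to 2 Mb (left) and between chromosomes (right), for members (circles) and the equal-end group (squares, whose intervals are narrower than the symbols) by library and summed. Bars are 95% Poisson intervals. On the left the members' sum of 0.607 lies below the group's 0.708 but is 0.760 without the pair Rps28 and Rps18. On the right their sum of 1.69 lies above the group's 1.19. Without the 6 members that kept the smallest share of their ends in well-mapped pairs the interval is 1.10 to 2.14 and holds 1.19. The pair and these 6 members were left out after seeing the data. With both ends of a pair at a quality of 30 or more the interval is 1.213 to 2.225, above the group's unfiltered 1.19.

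Ribosomal protein genes outside the rule had levels from below to above the members' median. Rps3a1 and Fau, whose names do not follow the pattern, stood at 8.43 and 3.11 times their flanks in Control. The X-linked Rpl39, Rpl10, Rps4x and Rpl36a had 11.6, 11.2, 4.34 and 5.48 CPM in Control, all below the members' median of 13.1, and 5.00, 4.72, 2.45 and 3.09 in TGFB1+miR-9-LOF, with no correction for the copies of the X chromosome. The 6 -like genes that could be compared had a median of 5.50 CPM over the libraries, from 1.15 for Rpl39l to 24.3 for Rpl7l1. Of genes with related functions, the 76 mitochondrial ribosomal protein genes had a median of 8.22 CPM, the 19 genes of a list of TOP mRNAs 9.55 and the 30 ribosome biogenesis genes 11.5, beside 8.95 for the members. Their medians over the flanks in Control were 4.32, 6.62 and 5.28 times. The TOP list holds translation factors but also Vim, Npm1, Nap1l1, Hnrnpa1 and Tpt1, and Npm1 is in the biogenesis list as well. Its lowest gene, the elongation factor gene Eef1a1, had 0.954 CPM over the libraries and 0.282 times its flanks in Control, below every member.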

How the data were processed

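H3K4me3 HiChIP was measured in 4 libraries of MLg cells, 1 per condition. The authors made the deposited tables with HiC-Pro (version not given in the sources used here) on mm10, with MboI fragments and duplicates removed, and each line gives the positions of the ends of a valid pair and the mapping quality score of each end as deposited by the authors. Lines were counted here. Gene starts were those of GENCODE mouse release 21. Ends within 2 kb of a start and contacts of 20 kb to 2 Mb with an end within 10 kb were counted, without a filter on mapping quality. Promoters needed 100 ends over the libraries, and 0.5 was added to counts in ratios. Values at equal ends are minus the median of the other autosomal coding promoters nearest in ends. Expected contacts used 10-kb bins with coverage and distance, or interchromosomal ends. Intervals are exact Poisson or binomial at 95% and cover counting error only. Depth was 10864558 to 15568047 pairs. No test between conditions was made, since each had 1 library, and the 4 comparisons share libraries. Values and ratios at equal ends were tested on simulated counts per promoter. The counting of pairs and the expected contacts were not tested in this way.

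Named genes were a list by role, the 3 members with the most and fewest ends, the 3 highest and lowest in contacts at equal ends, the 2 highest and lowest ratios of the first 3 comparisons, and member pairs with at least 10 expected contacts. Some items are not reported here. Members and lists were chosen with earlier results of these data known. Tools were matplotlib 3.10.9, pyarrow 21.0.0, numpy 2.4.6, pandas 2.3.3 and scipy 1.17.1 under Python 3.11.15.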

Additional observations from a re-analysis of the deposited data

How the results depend on the processing

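No paired analysis was possible because each condition had 1 library, and no replicate could be left out. Alternatives varied mapping quality, repeated fragment pairs, start site, end and contact windows, the comparison promoters, the minimum of ends and the pseudocount. Comparison promoters matched for GC content or for as many neighbours, leaving out the 6 members that kept the smallest share of their ends in well-mapped pairs, ends per MboI site in the profile, and the sum over member pairs without Rps28 and Rps18 (0.760 in place of 0.607), were chosen after seeing the data. Of 190 values for the main comparisons 185 stayed within the limits set and 5 moved. A value within the limits could still change direction. Among genes without another start within 10 kb, 44.8% of members were lower for contacts in TGFB1 over Control, in place of 65.3%. In miR-9-LOF over Control the share was 41.4% in place of 56.9%, and both are among the 185. With contacts within 2 kb, 34.7% of members were above promoters with equal ends in Control, 33.3% with TGFB1+miR-9-LOF and 30.6% with miR-9-LOF. Among genes without another start within 10 kb the share in miR-9-LOF was 37.9%. With windows of 2 kb the ratio between chromosomes was 1.19 for members and 0.862 for the equal-end group, with 7 member pairs. The share of members lower for ends in TGFB1+miR-9-LOF over miR-9-LOF ranged from 69.1% to 86.2%.

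Over all alternatives 211 values of single genes changed sign, of which 184 were within their error to begin with, such as Rpl3 from its principal start, with -0.054 for contacts in miR-9-LOF over Control and -0.13 for ends with TGFB1+miR-9-LOF relative to TGFB1. The other 27 follow, and the cause was not tested. With contacts within 2 kb the mean over libraries relative to equal ends was -0.28 for Rplp0, -0.20 for Rplp2, 0.16 for Rpl11, -0.11 for Rpl13a, -0.36 for Rpl24, -0.20 for Rps24, -0.073 for Rps10, -0.019 for Rpl19, -0.11 for Rpl36, -0.34 for Rpl23a, 0.080 for Rpl21, 0.0071 for Rps16 and -0.053 for Rpl3. With contacts within 5 kb it was -0.22 for Rplp0, -0.036 for Rplp1, 0.026 for Rpl11 and -0.50 for Rpl24, and with ends within 1 kb 0.0065 for Rpl38 and -0.0076 for Rpl14. For miR-9-LOF over Control the contacts within 2 kb gave 0.17 for Rplp2, 0.34 for Rps10, 0.42 for Rpl23a and 0.13 for Rps9, and within 5 kb 0.0022 for Rps9. For TGFB1+miR-9-LOF over TGFB1 they gave 0.37 for Rpl23a within 2 kb and 0.13 within 5 kb, and -0.0044 for Rpl3 from its principal start.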
